A study of Rattus norvegicus with 2 samples.

Results

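The circRNAs described here are 217 of the 11599 in a table of rat spinal cord, chosen because their only host name is a placeholder. Such a name starts with AABR, LOC or RGD followed by digits, and a circRNA was left out where any other name stood beside it. The 217 carried 108 names, of which 27 were AABR, 40 LOC and 41 RGD names, and each carried exactly 1. The study put live Walker256 cells, a rat mammary carcinoma line, into the marrow cavity of the tibia as a model of bone cancer pain (BCP), and boiled Walker256 cells in the sham group. Both groups had the same surgery and were kept for 21 days, with 3 animals each. The sources used here do not give the strain, age or sex of the operated rats, or say whether RNA was pooled. There was 1 library per group, so every difference below is between these 2 libraries, with no replicate check and no p-value.

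A circular RNA (circRNA) forms when the splicing machinery joins the end of an exon back to the start of the same or an earlier exon, and the closed molecule resists exonucleases that degrade linear RNA. It is recognised in sequencing by reads across that back-splice junction, and 1 gene can give several circRNAs that share a junction end. Nervous tissue is known for a high content of circRNAs, many of which outlast the linear RNA of their genes. The placeholder names record a stage of annotation. AABR names come from sequence contigs of the rat assembly, LOC names carry an NCBI Gene number, and RGD names carry a Rat Genome Database number, all given before a gene had a symbol.

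The word uncharacterised held for only some of the names. In the RefSeq gene table of the newer GRCr8 assembly, used for names alone, 38 of 41 RGD names and 28 of 40 LOC names matched a gene, and 0 of 27 AABR names did. The 66 matched names covered 136 circRNAs. Of these names, 60 now belong to protein-coding genes with 127 circRNAs, and 6 to pseudogenes with 9 circRNAs. The other 42 names, with 81 circRNAs, stayed unmatched. The matched gene lay on the chromosome of the circRNA for 130 circRNAs and on another one for 6, among them 4 of the 6 pseudogene names, whose identity is therefore uncertain. Matched symbols are given below in parentheses after the name in the table.

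The libraries held 113033 back-splice reads in sham and 78836 in BCP. All 7 neuron markers checked hosted a circRNA, with 382 reads in sham and 241 in BCP. Among glial markers, 3 of 5 oligodendrocyte genes (11 and 45 reads), 1 of 5 astrocyte genes (5 and 3) and 2 of 6 microglia and macrophage genes (13 and 43) did, and Gfap, Aqp4, Cx3cr1 and Csf1r had no circRNA in the table. The markers of skeletal muscle, red blood cells and carcinoma had none either. The oligodendrocyte list was thus 5.87-fold (2.99 to 12.6) higher in BCP. The microglia and macrophage list was 4.74-fold (2.503 to 9.61) higher, from 2 circRNAs of Ikzf1 and Ptprc alone, while Aif1 and P2ry12 also had none. The part of both lists in the results below was not tested. Levels are in CPM, back-splice reads scaled by the total of the library. In bulk tissue, fewer cells of a type and less RNA per cell cannot be told apart.

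The 217 circRNAs were a small part of both libraries. They took 2476 sham reads, 2.19% of the library (exact binomial 95% interval 2.11 to 2.28), and 1824 BCP reads, 2.31% (2.21 to 2.42). All intervals here are 95% and cover counting error only, not variation between animals or libraries. PCR copies of 1 molecule cannot be recognised without molecular identifiers, so the intervals can be too narrow even for counting error. The ratio of BCP to sham was 1.06 (0.994 to 1.12), but it lay below 1 with the other scalings, at 0.982 (0.924 to 1.04) with median-of-ratios and 0.974 (0.916 to 1.04) with TMM scaling. A single circRNA of LOC100362999 moved this sum: without it the ratio was 1.19 (1.12 to 1.27). The direction of the whole set is therefore not settled.

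Reads were concentrated on few members. The 3 most abundant held 35.0% of the members' sham reads and 42.5% of their BCP reads, and the 12 most abundant held 67.5% and 60.3%. At the other end, 53 members (24.4%) had 2 reads in all and 106 (48.8%) had 3 to 9. Over the whole table these shares were 20.8% and 49.05%. The median count where listed was 4 reads in each library, the same as in the whole table. Both libraries listed 75 members (34.6%), sham alone listed 80 (36.9%) and BCP alone 62 (28.6%). For the whole table these shares were 41.2%, 36.4% and 22.4%. The smallest count listed was 2, so a value of 0 does not show absence, and a fold against 0 is not given.

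The most abundant circRNA of the set was AABR07060133.1 on chromosome 4 (58469325 to 58485447, 16123 bp, build rn6 as throughout). It ranked 10 among all 11599 circRNAs by reads. It had 472 reads in sham (4176 CPM) and 420 in BCP (5328 CPM), a ratio of 1.28 (1.12 to 1.46). A longer circRNA of the same name (58420810 to 58485447, 64638 bp) used the same end and had 99 and 88 reads. The shorter of them held 82.7% of the reads of the name in sham (79.3 to 85.7) and 82.7% in BCP (79.1 to 85.9), so the mix of the pair differed by less than its counting error. Outside the set, a circRNA of 117911 bp without a host name also used this end, with 32 and 22 reads.

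No RefSeq match names this locus, but its neighbours can be given. The nearest circRNAs with a named host were those of Copg2, 273362 bp before the longer circRNA, and Mkln1, 229200 bp after it. In the GRCr8 gene order, Copg2 and Mkln1 enclose 2 protein-coding genes, Klf14 and Tsga13, together with 4 long non-coding RNA genes and 4 miRNA genes that include Mir29a and Mir29b1. Which of them, if any, gives rise to AABR07060133.1 was not tested.

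Next in abundance was RGD1565775 (Khdc4, a KH-domain RNA-binding protein gene), with a short circRNA on chromosome 2 (188055409 to 188056256, 848 bp). It had 203 and 196 reads in sham and BCP, a ratio of 1.38 (1.13 to 1.69). LOC294154 (Ilrun, a gene linked to inflammation and lipid regulation) followed on chromosome 20 (7363740 to 7372069) with 191 and 160 reads, 1.20 (0.967 to 1.49). AABR07033720.1 on chromosome 11 (37459699 to 37475255) had 142 and 94 reads, 0.949 (0.723 to 1.24). These values lay close to the diagonal of equal levels, and only the ratios of RGD1565775 and the shorter AABR07060133.1 circRNA had intervals above 1. With median-of-ratios or TMM scaling every log2 ratio moves by -0.10 or -0.12, and both kept a positive sign.

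Of the others among the 12 most abundant, AABR07069473.1 on chromosome 8 had a circRNA of 51380 bp with 67 and 36 reads. RGD1559441 (Cd99l4) had 41 and 28 reads, RGD1310081 (Cplane1, a gene of cilium formation) had 36 and 20, and RGD1562608 (Kiaa1328) had 27 and 31. None of these 4 met the size rule given below, and each interval of the ratio included 1. LOC100362999, RGD1311595 and AABR07007879.1 also belong to the 12 and are described among the differences.

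**Figure D1:**
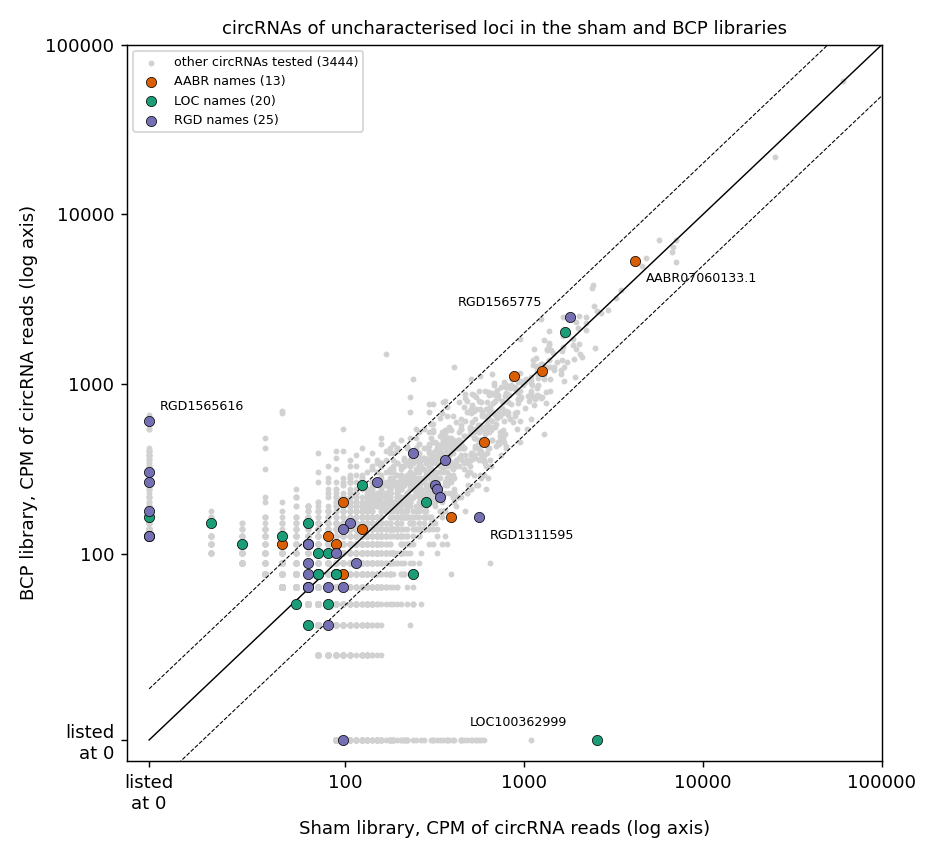
CPM of circRNA reads in the sham library (x, log axis) and the BCP library (y, log axis) for circRNAs with at least 10 reads over both, 58 of uncharacterised loci (coloured by kind of name) and 3444 others (grey). The solid line marks equal levels, dashed lines mark 2-fold, and values listed at 0 sit on the margins, where LOC100362999 (287 reads in sham) and RGD1565616 (48 reads in BCP) stand out.

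The median span of the members was 7290 bp, against 9405 bp for the 9931 circRNAs of named host genes and 13242 bp for the 1298 without a host name. This is a description with no test, and its direction turned under a wider rule for names that also takes placeholder names beside small RNA names, with a median of 10008.5 bp. Weighted by reads, the median was 10019 bp in the set and 10357 bp in the whole table. By kind of name the medians ran from 6697 bp for RGD to 8218.5 bp for LOC names. Names matched to protein-coding genes had a median of 6150 bp, and unmatched names 10609 bp. Spans of at most 500 bp made up 7.37% of members and 6.12% of the table. Spans of at least 100000 bp were 1 of 217 members (0.461%) and 3.01% of the table. Under the wider rule they were 15 of 370 (4.05%), so the low share among members depends on the rule for names. The longest was a circRNA of RGD1562608 (Kiaa1328) of 152813 bp with 4 and 0 reads, and the shortest was one of LOC100365902 on chromosome X of 149 bp with 0 and 2 reads.

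**Figure D2:**
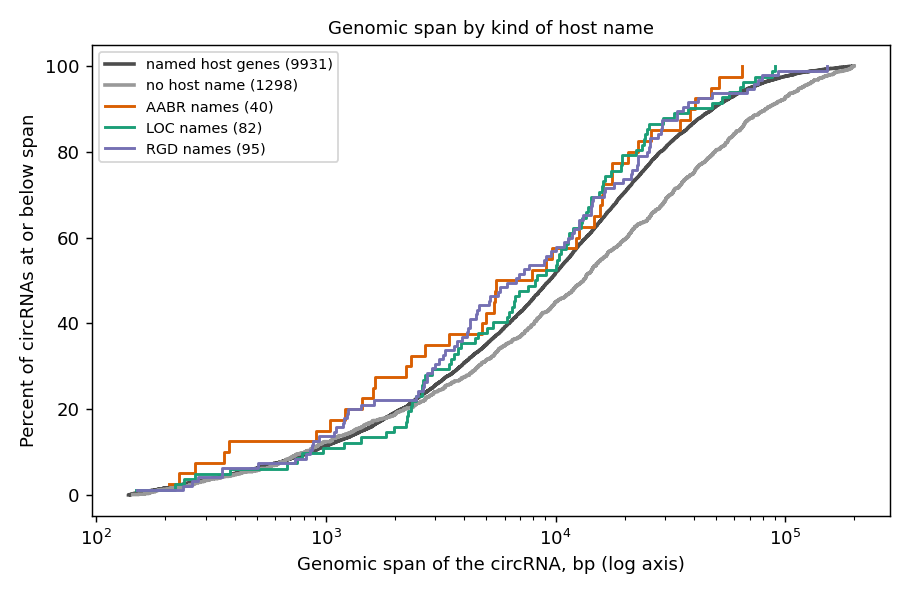
Cumulative percent of circRNAs (y) at or below a genomic span in bp (x, log axis), for the 3 kinds of placeholder name, for named host genes and for circRNAs without a host name. The placeholder curves lie left of both others over the middle of the range, at medians from 6697 to 8218.5 bp against 9405 and 13242 bp.

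Junction ends were often shared. Of the 217, 114 (52.5%) used a start or an end that another circRNA of the table also used, against 60.02% for named hosts and 59.2% for circRNAs without a host name. For 107 the partner was another member, for 10 a circRNA without a host name, and for 9 a circRNA whose placeholder name stood beside small RNA names. Only 3 shared an end with a circRNA of a named host, and the same 3 were the only members to overlap one. In those 3 cases the other circRNA also carried the placeholder name, beside Eif3h or Ears2. Since the rule left out circRNAs with another gene name, this low overlap is in part set by the rule.

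The comparison of BCP with sham used a size rule: at least 10 reads over both libraries, a CPM ratio of at least 2-fold and an exact conditional interval that excluded 1. It was applied to the whole table. Of the members, 58 had enough reads, and 159 did not. Of the 58, 9 were higher in BCP (15.5%), where 7.82% of all tested circRNAs were, and 5 were lower (8.62%), where 7.42% were. The share that was lower is near the background. The share that was higher rests on zeros: 7 of the 9 were listed at 0 in sham. Among the 49 with reads in both libraries, 2 were higher (4.08%, against 5.86% of all such circRNAs) and 3 lower (6.12%, against 2.65%). The median log2 ratio was 0.29 in the 58 and 0.02 over all 3502 tested, and 36 of the 58 were above 0. With median-of-ratios scaling these medians were 0.18 and -0.09.

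The 7 members higher in BCP and listed at 0 in sham came from 6 names. RGD1565616 (Dnaaf9, an assembly factor gene for the dynein motors of cilia) gave a pair of them on chromosome 3, 1 with 48 BCP reads (123299120 to 123304722) and 1 with 14 (123285078 to 123304722). RGD1310352 (C10h5orf15) had 24 reads on chromosome 10 (37764317 to 37764822). RGD1310951 (Kiaa1958) had 21 on chromosome 5 (76925720 to 76926914). All of these are protein-coding genes in RefSeq, and C10h5orf15 and Kiaa1958 are symbols that only number an open reading frame or a cDNA. LOC680039 (Kiaa0232) had 13 reads on chromosome 14 (79281829 to 79296044). AABR07015859.1 had 10 reads on chromosome 14 (81703301 to 81708798). RGD1310429 (C10h17orf75) also had 10, on chromosome 10 (67741790 to 67742140).

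The 2 higher members with reads in both libraries were thinly covered. LOC102549817 (Znf431l4, named as a zinc finger gene) on chromosome 7 (9826042 to 9826424) gave 2 sham and 12 BCP reads, 8.60-fold higher with an interval of 1.92 to 79.1. LOC100909609 on chromosome 1 (207085491 to 207088396) had 3 and 9 reads, 4.30-fold (1.07 to 24.7). Under median-of-ratios or TMM scaling the second missed the rule. At these counts the size of the difference is known only to within more than an order of magnitude.

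The 5 lower members included the most uneven circRNA of the set. LOC100362999 on chromosome 6 (59301040 to 59301308, 269 bp) gave 287 sham reads (2539 CPM) and was listed at 0 in BCP. RefSeq now lists this name as St13-ps2, a pseudogene named after St13, which encodes a cochaperone of Hsp70. A pseudogene can share sequence with its parent gene, and the sources used here do not say how reads were placed between copies, so this circRNA is uncertain. No circRNA of St13 itself was listed in either library. RGD1306271 on chromosome 4 (65875765 to 65897296) was the other one listed at 0 in BCP, with 11 reads in sham.

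With reads in both libraries, 3 members were lower. RGD1311595 (Brd10, a bromodomain protein gene) on chromosome 1 (247944245 to 247945662, 1418 bp) gave 63 sham reads (557 CPM) and 13 BCP reads (165 CPM), 3.38-fold lower (1.84 to 6.70). LOC361635 (Vps35l, a subunit gene of the retriever complex that recycles cargo from endosomes) on chromosome 1 (188481301 to 188483565) had 27 and 6 reads, 3.14-fold lower (1.27 to 9.30). AABR07007879.1 on chromosome 2 (32632863 to 32636300) had 44 and 13 reads, 2.36-fold lower (1.25 to 4.78). These 3 kept their call with both other scalings.

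**Figure D3:**
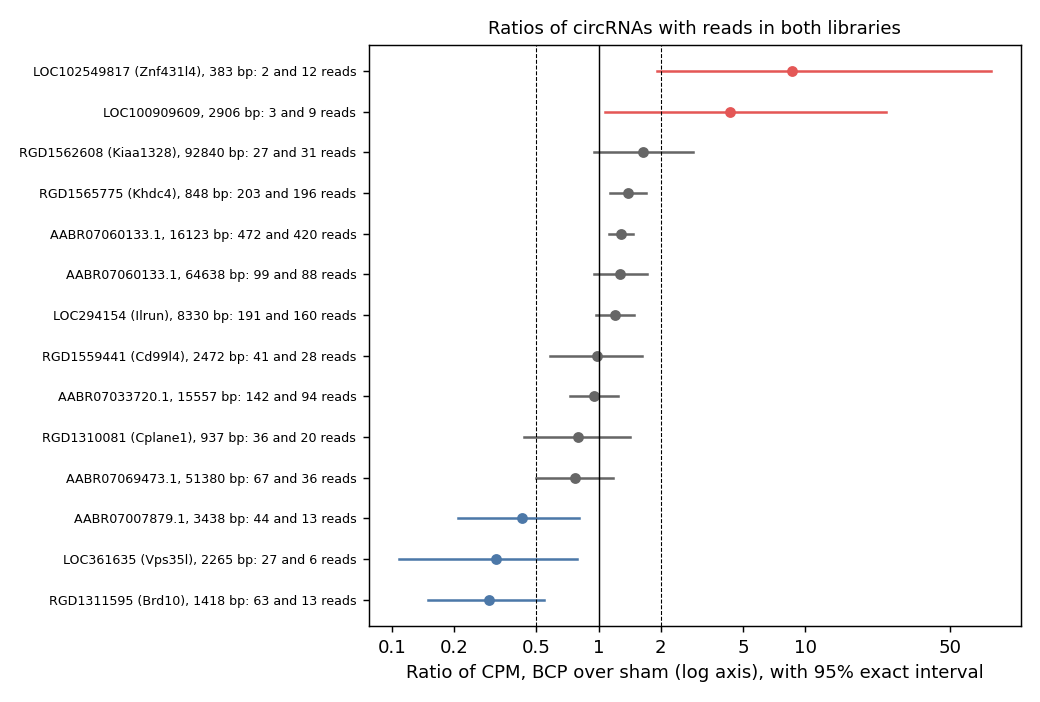
Ratio of CPM in BCP over sham (x, log axis) with its 95% exact interval, for the 14 circRNAs with reads in both libraries that were among the 12 most abundant or met the size rule (red higher, blue lower, grey neither). Dashed lines mark 2-fold; abundant circRNAs such as AABR07060133.1 (1.28) have narrow intervals near 1, and those of Brd10 (3.38-fold lower) and LOC102549817 (8.60-fold higher) lie away from it.

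Several names hosted more than 1 member: 46 names held 155 of the 217, and at 36 of the 46 at least 2 members shared an end. The names with most members were RGD1565616 (Dnaaf9, 11), RGD1564887 (Armh3, 9), LOC100909609 (7), LOC361635 (Vps35l, 6), LOC100911993 (6) and RGD1311595 (Brd10, 5). Members of 1 name come from the same locus and are not independent of each other. The 3 members of LOC100364190 lay up to 1694238 bp apart, end to end, which makes that name doubtful for some of them.

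At RGD1565616 (Dnaaf9) the reads fell on the ends in different shares. Its 11 circRNAs had 60 reads in sham and 86 in BCP, and 2 of them were listed in both libraries. The end at 123304722 served 2 circRNAs with 62 of the 86 BCP reads, 72.1% (61.4 to 81.2), and had 0 of the 60 sham reads. The end at 123308032 had 38 sham reads, 63.3% (49.9 to 75.4), and 20 BCP reads, 23.3% (14.8 to 33.6). The start at 123299120 was joined to both ends, with 38 reads in sham and 65 in BCP. A circRNA from that start to 123308032 had 38 and 17 reads, and the one to 123304722 had 0 and 48. The Dnaaf9 sum was 2.06-fold higher in BCP (1.46 to 2.91), which fell under the 2-fold limit with median-of-ratios (1.91) and TMM (1.89) scaling, and its 2 circRNAs listed in both libraries summed to 42 and 21 reads, short of the rule.

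RGD1311595 (Brd10) also divided its reads differently. Its 5 circRNAs had 116 reads in sham and 43 in BCP. The end at 247945662 held 57.8% of its sham reads (48.2 to 66.9) against 30.2% in BCP (17.2 to 46.1), and the end at 247960553 took 42.2% (33.1 to 51.8) and 69.8% (53.9 to 82.8). The start at 247944245 was used with both ends: the circRNA to 247945662 had 63 and 13 reads, and the one to 247960553 had 37 and 19. A circRNA from 247931326 to 247960553 had 10 and 8 reads. The other 2, both starting at 247922780, had 2 and 3 reads (37774 bp) and 4 and 0 reads (22883 bp). The Brd10 sum was 1.88-fold lower in BCP (1.32 to 2.74) and did not meet the rule, but it did with median-of-ratios (2.02-fold lower) and TMM (2.04-fold lower) scaling.

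LOC361635 (Vps35l) had 42 and 25 reads over 6 circRNAs. Only the 2265 bp circRNA given above met the rule, and the other one listed in both libraries, of 6171 bp, had 7 and 12 reads. Of the remaining 4, 2 were listed in sham alone and 2 in BCP alone, with 3 to 5 reads each.

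Other loci showed a similar mix in both libraries. At AABR07069473.1, 3 circRNAs shared the start at 23508992. The longest of them took 76.1% of the sham reads of that name (65.9 to 84.6) and 70.6% of the BCP reads (56.2 to 82.5). At LOC100365556 on chromosome 3, the end at 12330607 took 66.7% (48.2 to 82.04) and 68.4% (51.3 to 82.5). These shares differed by less than their counting error. RGD1564887 (Armh3, a gene for a Golgi protein) spread 35 and 41 reads over 9 circRNAs, of which the largest had 17 and 21, and 5 of the 9 were listed in 1 library only.

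**Figure D4:**
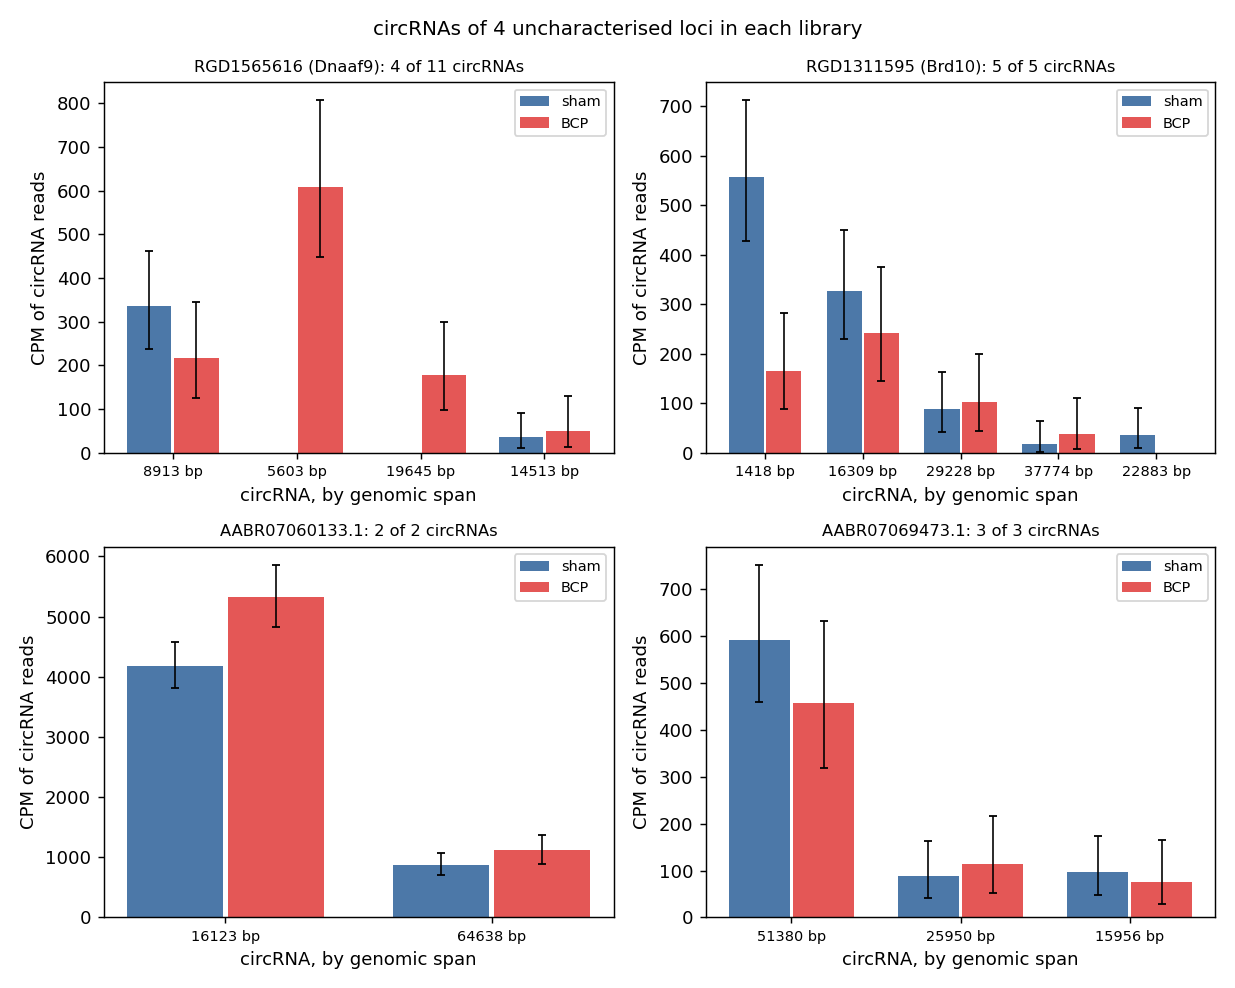
CPM of circRNA reads (y, from 0) in the sham (blue) and BCP (red) library for circRNAs of 4 loci, labelled by genomic span (x), with exact binomial 95% intervals for counting error; no bar means listed at 0. For Dnaaf9, the 4 of 11 circRNAs with most reads are drawn: the 5603 bp and 19645 bp circRNAs have bars only in BCP, and for Brd10 the 1418 bp circRNA has 557 CPM in sham and 165 in BCP.

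Summing the members of a name left 57 names with at least 10 reads. Of these, 8 were higher in BCP (14.04%, against 8.61% of all 2125 host sums tested) and 7 were lower (12.3%, against 8.56%). Besides names already given, RGD1309730 (Iftap, linked to transport in cilia) was higher with 2 and 8 reads, 5.74-fold (1.14 to 55.4). LOC688708 (Abcc1-ps1, a transcribed pseudogene) was lower with 16 and 3 reads, 3.72-fold (1.06 to 19.9). Its 3 circRNAs with sham reads shared the end at 593608 on chromosome 10, and the BCP reads came from another circRNA. LOC102554591, AABR07026473.1 and LOC499602 (Abhd18) had 12 reads each in sham and were listed at 0 in BCP, like RGD1306271 with 14. For LOC102554591 this holds only under the strict rule for names, since other circRNAs of the same stretch, listed with small RNA names as well, had BCP reads. Over circRNAs listed in both libraries, 39 names could be tested, of which 1 was higher (LOC102549817, 2.56%, against 4.91% of 1731 host sums) and 1 lower (AABR07007879.1, 2.56%, against 1.62%).

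The 6 pseudogene names together had 315 reads in sham and 21 in BCP, of which LOC100362999 gave 287 of the sham reads. LOC688906 (Scaf11-ps1), matched to a gene on another chromosome, had 7 and 3 reads. No circRNA of Abcc1, Metap2, Pank3, Scaf11 or St13, after which 5 of these are named, was listed. By kind of name, AABR names took 0.849% of the sham library (0.797 to 0.905) and 0.981% of the BCP library (0.913 to 1.05). LOC names took 0.691% (0.643 to 0.741) and 0.515% (0.466 to 0.567), and RGD names 0.650% (0.604 to 0.699) and 0.818% (0.756 to 0.884). Without LOC100362999, LOC names took 0.437% and 0.515%, so their lower share in BCP rested on that circRNA. Without the most abundant circRNA, AABR names took 0.432% and 0.448%.

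Another 153 circRNAs carried a placeholder name beside names of small RNA families such as U6, 7SK or SNORA17, and were not counted as members. Of these, 118 had a name that recurred over more than 3 Mb of a chromosome, and only 3 names did so (LOC100360260, LOC100909885 and LOC100360056), so that field cannot place a circRNA at 1 locus. The most abundant of the 153 was one of LOC100360260 on chromosome 4 (132075419 to 132114473) with 129 and 127 reads. The most abundant with a name that did not recur was one of LOC102554591 on chromosome 17 (84296197 to 84299839) with 46 and 35 reads. Of the 34 tested, 2 were higher in BCP (5.88%, against 7.82% of all tested) and 1 lower (2.94%, against 7.42%).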

How the data were processed

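The authors deposited 1 table with raw back-splice read counts and, per the file header, values headed TPM. These are CPM values: for all 9003 listed counts in sham and 7375 in BCP, the deposited value equals the count scaled to the column total within 0.001 CPM. The submitters' processing notes name CASAVA 1.8, rn6 and BWA, with no order or role. The circRNA caller, its read minimum, its annotation and the version of BWA: not given in the sources used here. Per the labels' protocols, ribosomal RNA was removed and linear RNA was digested with RNase R, so linear host RNA is not measured. The tissue label was followed, although the source label names the injected cells.

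Members had placeholder names alone. Small RNA family names were listed after the file was seen. Names were matched to RefSeq (GRCr8) by symbol, a unique synonym or gene number. Host sums for the background left out names spread over more than 3 Mb. Counts were scaled to 113033 and 78836 reads. Log2 ratios used a pseudocount of 0.5 reads, and intervals were Clopper-Pearson (scipy 1.17.1). No p-value was computed. The size rule and the cover of the binomial interval were tested on simulated data, and the other steps were not. Alternatives were TMM scaling with edgeR 4.0.16, median-of-ratios scaling with DESeq2 1.42.0, other read minimums, ratios and pseudocounts, circRNAs with reads in both libraries, and a wider rule for names.

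The circRNAs named are the 12 with most reads, those past the size rule, the shortest and longest, the 6 names with most members and the sums past the rule. Others were named after their values were seen. The members, lists and tests were chosen with earlier results of these data known. No rn6 genome was used here, so exons and sequences are not given.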

Additional observations from a re-analysis of the deposited data

How the results depend on the processing

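No paired analysis was possible because each group had 1 library. The counts of circRNAs past the size rule (9 higher, 5 lower) stayed within 1.5 times with both other scalings, with ratios of 1.5-fold and 3-fold and with the wider rule for names. A minimum of 5 reads gave 11 lower, a minimum of 20 reads gave 3 higher, and circRNAs with reads in both libraries gave 2 higher and 3 lower. For sums by name (8 higher, 7 lower), a minimum of 5 reads gave 11 lower, a minimum of 20 reads gave 3 higher and 2 lower, and circRNAs with reads in both libraries gave 1 and 1. Fewer features are tested under the last 2 settings, and more under the first. The ratio of summed reads, 1.06, reversed to 0.982 with median-of-ratios and 0.974 with TMM scaling. Its interval excluded 1 with circRNAs of both libraries alone (1.15) and without LOC100362999 (1.19, chosen after the data were seen). The first of these filters also put the whole table above 1, at 1.04 (1.03 to 1.05). The median log2 ratio of 0.29 became 0.18 with median-of-ratios scaling, 0.17 with TMM, 0.072 with at least 5 reads, 0.13 with the wider rule and 0.19 with reads in both libraries. Over all circRNAs the medians were -0.09, -0.10, 0.034, 0.02 and 0.054 in the same order, and 0.02 in the main setting. The median span of 7290 bp became 10019 bp weighted by reads and 10008.5 bp with the wider rule; the cause was not tested. Among named circRNAs, AABR07007879.1 missed the 3-fold limit and LOC100909609 missed the rule under both other scalings. Depth limits the set: 159 of 217 members had under 10 reads.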

Other observations

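A few thinly covered members with a RefSeq gene name are given here by their reads. They were picked after their values were seen. RGD1562084 (Tmem266, a voltage sensor protein gene) had 4 circRNAs with 10 reads in sham and 6 in BCP, a sum that did not pass the size rule. LOC689991 (Unc80, a subunit gene of the sodium leak channel complex) had 1 circRNA with 5 reads listed in sham alone and another with 3 reads in BCP alone. LOC606294 (Kifbp, a kinesin binding protein gene) had 3 circRNAs that shared the end at 32201871 on chromosome 20, with 3, 2 and 2 reads, all in BCP. RGD1311558 (Shtn1, a gene of axon formation) had 4 reads in BCP and 2 in sham from circRNAs with the same end. LOC100361584 (Ano2, a calcium-activated chloride channel gene) had 4 and 5 reads. RGD1307100 (Bltp1, a gene for a lipid transfer protein) had 5 circRNAs with 6 and 8 reads in all, a sum that did not pass it either, and none of the 5 was listed in both libraries.

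Chromosome 1 held 45 of the 217 members (20.7%) and 10.3% of the table, and chromosome 3 held 28 (12.9%) and 7.03%. Names with many members weigh on these shares. Chromosome 1 held 9 of RGD1564887 (Armh3), 7 of LOC100909609, 6 of LOC361635 (Vps35l) and 5 of RGD1311595 (Brd10). Chromosome 3 held 11 of RGD1565616 (Dnaaf9) and 5 of LOC100365556. Members of 1 name are not independent, so the shares do not count separate loci. At 20 of the 46 names with at least 2 members (43.5%), sham alone listed 1 or more of them and BCP alone listed others. Over all 1998 host names with at least 2 circRNAs this share was 37.9%.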
